A study of Danio rerio with 10 samples.

Results

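Adult male zebrafish that received 17β-estradiol (E2) together with the anti-estrogen ICI 182,780 (ICI) were compared with males that received only the ethanol in which both were dissolved. The 7 arrays of this comparison, 3 of E2+ICI fish and 4 of control fish, are part of a series of 10, whose other 3 arrays are of fish that received E2 alone. The E2+ICI fish were kept in water with 10 nM E2 and 1 μM ICI, the E2 fish with 10 nM E2, and the control fish with 0.01% ethanol, a share reported as similar in all media, each for 96 hours with daily renewal. Sample titles give the E2 dose as 10 mM, and the protocol and the methods as 10 nM, which was used here. Strain and age are not given in the sources used here. Each array held RNA of the whole body of 1 fish, so that tissues cannot be told apart, nor fewer cells of a type from less RNA per cell. No group received ICI alone, so that an effect of ICI itself and an effect of E2 that ICI left in place cannot be told apart.

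Estradiol enters cells and binds estrogen receptors, transcription factors that then act on genes carrying estrogen response elements. In female fish the ovary supplies the hormone and the liver answers with vitellogenin, the yolk precursor, while male livers keep the same genes silent until they meet an estrogen. ICI 182,780, also called fulvestrant, is a steroid that occupies the receptor without activating it and, in mammalian cells, lowers its amount. A full block of E2 by ICI would leave fish at the level of the ethanol controls, and the comparison asks which transcripts were still away from that level.

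The array carried 16416 spotted oligonucleotide probes, of which 16309 had at least 2 values in both groups and were tested. Each value is the log2 ratio of a fish's RNA to a common reference RNA, so that 0 stands for the level of the reference, and a log2 fold change is the E2+ICI mean minus the control mean. The tables do not say which RNA is on top of the ratio, and it was read as fish over reference, the direction in which the study describes its rises. The methods describe the reference as liver RNA of both sexes. Of the 7 muscle markers with a probe, mylpfa, tpma and tnnt3b lay below 0 in each of the 7 fish, and ckma, pvalb1, pvalb2 and atp2a1 on both sides of 0. Of the 4 liver markers with a probe, fabp10a and apoa1a lay below 0 in each fish, and serpinc1 and tfa on both sides. Values of the E2+ICI arrays were closer to the reference as a whole than those of the control arrays, as were those of the E2 arrays. The standard deviation over probes was 0.373, 0.561 and 0.415 on the E2+ICI arrays and 0.514, 0.461 and 0.466 on the E2 arrays. On the control arrays it was 0.796 to 1.07. Some spots carry a value that recurs on their array. It was 0.03, -0.11 and 0.01 on E2+ICI replicates 1, 2 and 3, at 145, 93 and 373 probes, against 36 to 84 probes on each control array. The median ratio of such spots before Lowess normalization was 0 or 0.001 on each array. Levels of 0.01 in replicate 3 given below for vtg3, zp3a.1, ccnb1, cldnd, rxrba and cel.2 are such values. So are the levels of ckma on every E2+ICI array and on control replicates 1, 2 and 4.

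Among the 16309 probes, 1935 passed an adjusted p under 0.05, which is 11.9%, and 1444 of them (8.85% of all) were higher and 491 (3.01%) lower in E2+ICI than in control fish. The 3 E2+ICI arrays lay wholly on 1 side of the 4 control arrays in 24.9% of all probes (15.4% above and 9.49% below) and in 1893 of the 1935 called. Rises were larger than falls. The median rise of a called probe was 1.06 and the median fall -0.82 on the log2 scale, 774 rises and 117 falls were over 2-fold, 73 rises were over 16-fold, and 0 falls were over 8-fold. Higher probes made up 74.6% of the calls, and 53.9% of 1023 calls after quantile normalization. Leaving out E2+ICI replicate 1 left 1085 calls and leaving out E2+ICI replicate 3 left 897, while the 2-group SAM test that the methods name called 1122 probes at a q-value under 0.05 (956 higher and 166 lower). Rises were 551 with quantile normalization, 706 with arrays scaled to equal spread, and 872 and 770 without E2+ICI replicates 1 and 3. Falls were 472, 366, 213 and 127 in the same order. Counts of gene lists in these settings, given below, stand against these totals.

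The calls went with the level in control fish. Of 112 probes whose control mean was below -4, 110 rose, and their median level was -0.68 in E2+ICI fish, 0.52 in E2 fish and -5.08 in control fish. Among the 336 probes with control means of -4 to -2, 290 rose (86.3%), and the medians were -0.68 in E2+ICI, 0.15 in E2 and -2.53 in control fish. At the other end, 155 of the 513 probes with a control mean above 1 fell (30.2%), with medians of 0.65 in E2+ICI, 0.21 in E2 and 1.24 in control fish. In all, 1436 of the 1444 raised probes had a control mean below 0 and 479 of the 491 lowered ones a control mean above it. The E2+ICI mean was the nearer to 0 in 94.2% of the called probes, against 69.0% of all probes tested. The control mean enters both sides of these counts, which are given as a description only. Shares of gene lists given below are set against all probes, which differ from most lists in control level.

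**Figure D1:**
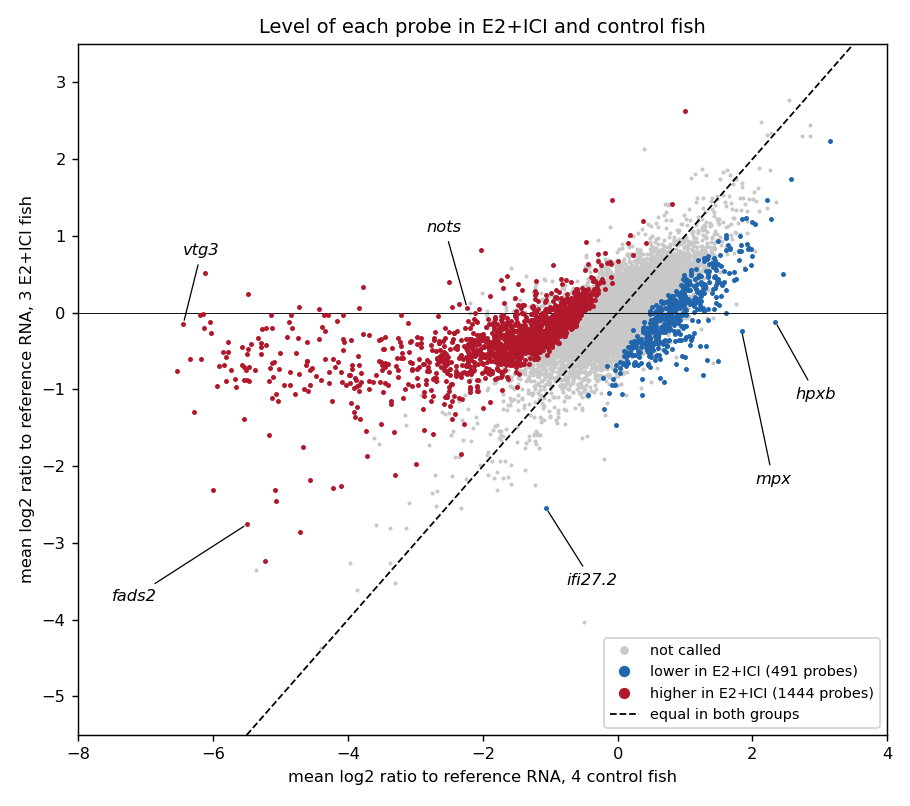
Mean log2 ratio to the reference RNA of each tested probe in 3 E2+ICI fish (vertical axis) against 4 control fish (horizontal axis), with called probes coloured and the dashed line marking equal levels. Most probes below -4 in control fish lie near 0 to -2 in E2+ICI fish, with a median of -0.68, and 479 of the 491 called falls lie to the right of 0.

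The yolk gene vtg3 and the protease gene nots were still raised. The transcript of vtg3, one of the vitellogenins, stood at -0.06, -0.39 and 0.01 in the 3 E2+ICI fish, 0.77, 0.86 and 2.01 in the E2 fish, and -6.71, -5.64, -6.47 and -6.96 in the control fish. All E2+ICI fish were thus at about the reference level and all controls far under it, a difference of log2 6.30 or 78.6-fold (SE 0.35, adjusted p = 4.5e-06). The gene nots, which encodes nothepsin, an aspartic protease made in the liver of female fish, had -0.42, 0.33 and 0.25 in E2+ICI, 0.88, 0.52 and 0.71 in E2, and -2.08, -2.14, -1.77 and -2.94 in control fish. It was 4.89-fold higher in E2+ICI than in control fish (log2 2.29, SE 0.27, adjusted p = 0.00027). Set against E2 alone, the E2+ICI means of vtg3 and nots were lower by less than the test could separate (-1.36, adjusted p = 0.056, and -0.65, adjusted p = 0.20).

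The estrogen receptor gene esr1, itself a known estrogen target in fish liver, did not pass. Its levels of 0.15, -0.86 and 0.03 in E2+ICI fish overlapped those of -1.50, -1.33, -0.84 and -0.43 in control fish, while the E2 fish had 1.39, 0.54 and 1.25. The difference between E2+ICI and control was 0.80 (SE 0.32, adjusted p = 0.14) and passed without control replicate 4 (1.00, adjusted p = 0.041). The other 6 probes of the estrogen biomarker list did not differ by more than their spread. They stand for the receptors esr2a and esr2b, the aromatases cyp19a1a of the gonad and cyp19a1b of the brain, and the progesterone receptor pgr, with differences of -0.15 to 0.31 and adjusted p of 0.45 to 0.96. In this list 2 of 9 probes were thus called, against 11.9% of all probes. With the replicate number added to the model (a replicate block), 3 probes of the list were called higher.

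All 5 tested egg envelope probes rose, against 8.85% of all probes, with a median log2 fold change of 4.63. These zona pellucida proteins form the coat of the fish egg and are made in the ovary of zebrafish and in the liver of many other fish. The transcript zp3b had -0.58, -1.31 and -0.37 in E2+ICI, 0.38, 0.03 and 0.17 in E2, and -5.71, -5.04, -5.12 and -5.66 in control fish, 24.8-fold higher in E2+ICI than in control fish (log2 4.63, SE 0.25, adjusted p = 4.5e-06). For zp3a.1 the E2+ICI fish spread more widely, at -0.81, -2.05 and 0.01, but stayed clear of the controls at -6.83, -4.99, -5.33 and -6.62 (log2 4.99, SE 0.51, adjusted p = 0.00010). Lack of overlap was also a ground for naming zp3a.1. The probes of zp3, at a recurring value on 2 of the 3 E2+ICI arrays, and zpcx rose by 5.06 and 4.01, and zp3d.1 by 1.08. All 5 were called in every alternative run for the list. Only zpcx among the 4 named by rule also differed between E2+ICI and E2 fish (-1.77, adjusted p = 0.037). The median of the egg envelope list averaged -5.08 over the control arrays, and 98.2% of all probes with control means below -4 rose.

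Of 14 probes for regulators of the oocyte and early embryo, 12 rose (85.7%, against 8.85% of all probes) and 0 fell, with a median of 3.09. The genes include cpeb1b, which binds the tails of stored messages, the maternal transcription factors pou5f3 and nanog, the kinase gene mos, which drives maturation in vertebrate oocytes, and the zygote arrest genes zar1 and zar1l. The cpeb1b values were -0.54, -1.08 and 0.02 in E2+ICI, 0.43, 0.30 and 0.29 in E2, and -5.20, -4.57, -4.76 and -5.52 in control fish (log2 fold change 4.48, SE 0.27, adjusted p = 4.5e-06). Those of pou5f3 were -0.49, -1.60 and -0.32 in E2+ICI, 0.34, 0.13 and 0.85 in E2, and -4.94, -4.23, -4.56 and -5.19 in control fish (3.93, SE 0.33, adjusted p = 2.5e-05). In both genes E2+ICI replicate 2 was the lowest of its group and still above every control. The median of the oocyte list averaged -3.91 over the control arrays, and 86.3% of all probes with control means of -4 to -2 rose.

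The nanog transcript was named for an E2+ICI mean near the E2 mean. It lay at -0.46, -1.26 and -0.30 in E2+ICI fish and -0.32, -0.71 and -0.07 in E2 fish, against -3.90, -3.51, -4.01 and -2.55 in control fish (2.82, SE 0.35, adjusted p = 0.00036). A further rise of 3.92 was seen for cth1, a zinc finger gene of the egg, with -0.72, -1.52 and -0.59 in E2+ICI against -4.87, -4.69, -4.72 and -5.18 in control fish (adjusted p = 4.5e-06). Its E2 fish, at 0.27, -0.17 and 0.38, were higher again than the E2+ICI fish (adjusted p = 0.033). The 2 probes of this list that were not called were nobox (0.52, adjusted p = 0.066) and cpeb1a (0.02, adjusted p = 0.96).

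Germ line genes also moved, 7 of 12 probes up and 1 down (58.3% and 8.33%, against 8.85% and 3.01% of all probes), with a median of 0.83. They act in the germ cells of both sexes, so that testis RNA can hold them too. The median of the list averaged -1.48 over the control arrays, and 57.3% of all probes with control means of -2 to -1 rose. The RNA-binding protein gene dazl had -0.66, -1.84 and -0.49 in E2+ICI, -0.06, 0.07 and 0.07 in E2, and -3.97, -3.26, -3.58 and -3.93 in control fish (log2 fold change 2.69, SE 0.30, adjusted p = 0.00017). The germ cell gene nanos3, at -0.07, -0.74 and 0.07 in E2+ICI against -2.78, -2.42, -2.66 and -2.18 in control fish, rose by 2.26 (SE 0.23, adjusted p = 1.0e-04). Of the 2 probes for ddx4, the vasa helicase, AF417241 rose by 1.68 (adjusted p = 0.0028) and AB005147 had 0.79 (adjusted p = 0.17).

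The lone germ line fall was nanos1 (-0.68, adjusted p = 0.025), a nanos family gene also used in the nervous system, and it was lost without E2+ICI replicate 1, 2 or 3 or control replicate 3 (adjusted p of 0.059 to 0.079). With arrays brought to 1 common distribution (quantile normalization), 1 germ line probe was called higher in place of 7, and the egg envelope and oocyte lists kept 5 and 11. On testis genes, 3 of 14 probes rose and 2 fell (21.4% and 14.3%, against 8.85% and 3.01% of all probes). Among them cyp17a1, the enzyme that opens the way to androgens and estrogens, was higher by 0.97 (-0.57, -0.70 and -0.26 in E2+ICI against -1.21, -1.35, -1.94 and -1.42 in control fish, adjusted p = 0.0068), and with quantile normalization it was not called (adjusted p = 0.39).

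The steroidogenic carrier gene star ran the other way, at 0.23, 0.28 and -0.26 in E2+ICI, -0.73, -0.72 and -0.83 in E2, and 1.53, 0.89, 0.41 and 1.68 in control fish (-1.05, SE 0.28, adjusted p = 0.032). That call was lost without E2+ICI replicate 1 (adjusted p = 0.075) or 3 (0.16), any 1 of the 3 E2 arrays (0.052 to 0.054) or control replicate 1 (0.069). The remaining calls of the testis list were rises of ttll4 (1.39) and spata6l (1.61) and a fall of tcp11l2 (-0.62). All of these entered the list through the start of their symbol alone. The calls of spata6l and tcp11l2 were lost in 5 and 16 alternative runs.

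**Figure D2:**
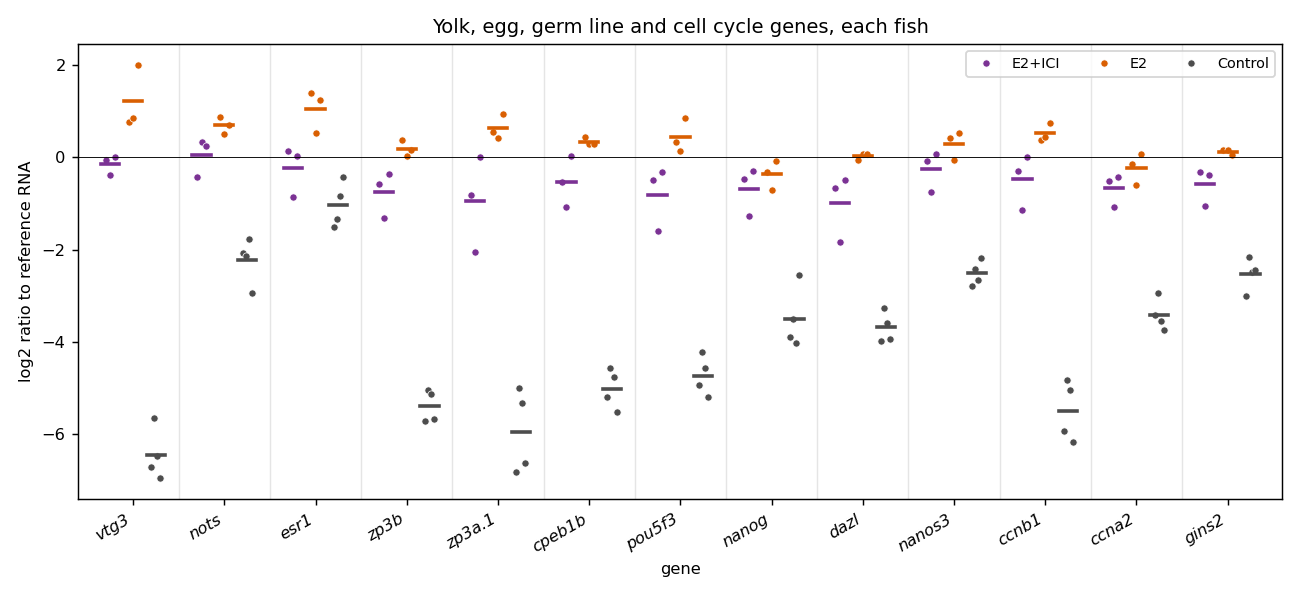
Log2 ratio to the reference RNA (vertical axis) of 13 genes in each fish, with E2+ICI in purple, E2 in orange and control in grey, and a bar at each group's mean. For all genes shown but esr1 the E2+ICI fish lie above every control fish, and for most of them below the E2 mean.

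Genes of cell division rose as well. Of 52 probes for mitosis and cyclins 26 rose and 0 fell (median 1.02), of 21 for DNA replication 8 rose and 0 fell (median 0.54), and of 22 for DNA repair 6 rose and 0 fell (median 0.47), against 8.85% raised and 3.01% lowered over all probes, whose median was 0.01. The medians of these lists averaged -1.35, -0.88 and -0.51 over the control arrays. Of all probes with control means of -2 to -1, 57.3% rose, and of those at -1 to 0, 6.36%. The cyclin B gene ccnb1, which drives entry into mitosis and is stored in oocytes, had -0.29, -1.13 and 0.01 in E2+ICI, 0.38, 0.45 and 0.76 in E2, and -5.93, -4.83, -5.04 and -6.16 in control fish, 32.4-fold higher in E2+ICI (log2 5.02, SE 0.35, adjusted p = 9.9e-06). The cyclin A gene ccna2, at -0.51, -1.07 and -0.42 in E2+ICI, -0.13, -0.59 and 0.07 in E2, and -3.42, -2.93, -3.53 and -3.74 in control fish, rose by 2.74 (SE 0.24, adjusted p = 3.3e-05) and did not differ beyond its spread from E2 alone (-0.45, adjusted p = 0.31). Nearness to E2 was also a ground for naming ccna2. Survivin-like birc5b, a subunit of the complex that corrects chromosome attachment, rose by 3.68 and cyclin E gene ccne1 by 2.15 (adjusted p = 1.7e-05 and 0.00012).

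Within the replication list the largest rise was that of gins2, a subunit of the GINS complex that travels with the replicative helicase. It measured -0.31, -1.04 and -0.37 in E2+ICI, 0.16, 0.16 and 0.06 in E2, and -3.01, -2.15, -2.47 and -2.43 in control fish (1.94, SE 0.23, adjusted p = 0.00025). The nucleotide supply genes rrm1 and tyms rose by 1.41 and 1.34, and the sliding clamp gene pcna and the helicase component gene cdc45 were also called. Repair members that rose were the checkpoint kinase gene chek2 (1.50, adjusted p = 0.0031), the helicase gene blm, polb, rad51b, the spindle-linked helicase gene ercc6l, and tdgf1, a Nodal co-receptor gene that is no repair gene. The calls of blm, polb and ercc6l were lost without E2+ICI replicate 3 (adjusted p of 0.089 to 0.11), and those of blm and polb without E2+ICI replicate 1 (0.067 and 0.062).

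These counts changed with the scaling of the arrays. With quantile normalization the mitosis, replication and repair lists had 10, 2 and 0 raised probes, and with arrays scaled to an equal spread 15, 2 and 1. Without E2+ICI replicate 1 they had 25, 5 and 2, and without E2+ICI replicate 3 they had 25, 5 and 1. The 2 probes of nasp, a histone chaperone of the chromatin list, rose alike by 3.29 and 3.15 (adjusted p = 2.5e-05 and 0.00010), and dnmt1, the maintenance DNA methyltransferase, stood at -0.49 and -0.18 in the 2 E2+ICI fish with a value, against -3.10, -2.59, -2.88 and -3.09 in control fish (2.59, adjusted p = 3.5e-05). Of 120 chromatin probes 16 rose and 1 fell, and of 106 probes for splicing and RNA helicases 19 rose and 4 fell, shares of 13.3% and 17.9% raised, against 8.85% of all probes. With quantile normalization both lists had 6 raised probes, and with equal spread 7 and 8. Over all probes, rises went from 1444 to 551 and 706 in these settings. Without E2+ICI replicate 1 both lists had 10 raised probes, without E2+ICI replicate 3 both had 8, and without control replicate 4 the chromatin list had 28. The 4 falls of the splicing list held in no setting that left out an E2+ICI or E2 array, where 0 to 2 were called, and without control replicates 2, 3 and 4 there were 2, 1 and 2. The raised splicing probes include rbm8a, a part of the exon junction complex (4.77, adjusted p = 1.7e-05), and ddx4, which is a germ line gene.

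**Figure D3:**
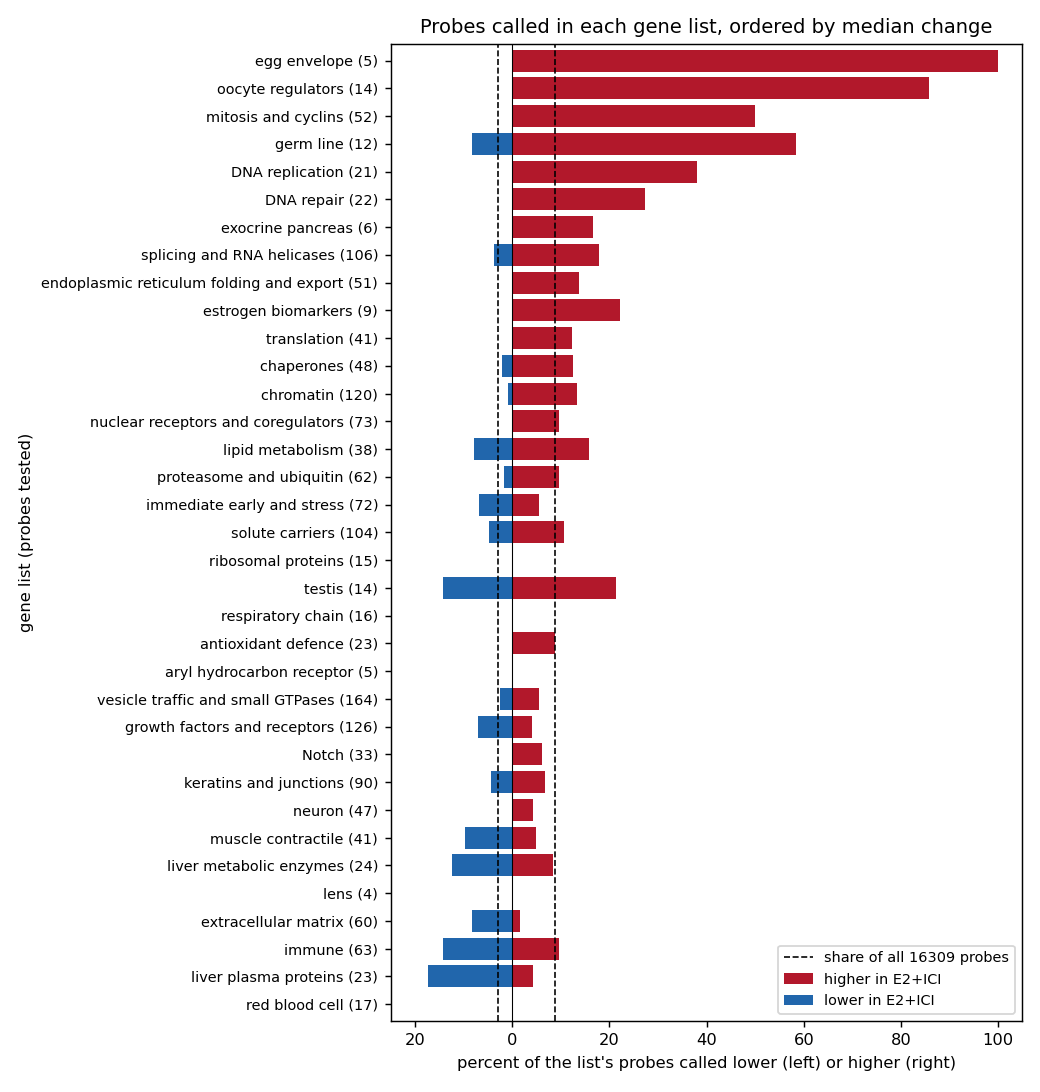
Percent of the tested probes of 35 gene lists called lower (blue, to the left) or higher (red, to the right) in E2+ICI than in control fish, with the lists ordered by median log2 fold change and the shares of all 16309 probes dashed (8.85% higher, 3.01% lower). Egg envelope, oocyte, mitosis, germ line and DNA replication lists lie farthest above, and 5 lists have no call.

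Several of the largest rises fell in other families. The claudin genes cldnd and cldng, of tight junctions, rose by 5.40 and 4.85, with levels of -0.27, -0.89 and 0.01 for cldnd in E2+ICI against -6.23, -5.01, -5.32 and -6.58 in control fish. The growth factor gene gdf3, a maternal partner of Nodal, rose by 3.51 (-0.72, -1.46 and -0.15 in E2+ICI against -4.38, -3.76, -3.94 and -5.08 in control fish, adjusted p = 6.1e-05). The spindle pole gene aspm (probe BG303443) rose by 4.99 and org, an oogenesis-related gene, by 5.13 (adjusted p = 0.00093 and 0.00059), with a recurring value in E2+ICI replicate 3 for both and for cldng.

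Probes of 1 gene did not always agree. For rxrba, a partner receptor of many nuclear receptors, U29942 rose by 5.76 (0.05, -0.86 and 0.01 in E2+ICI against -6.76, -5.40, -5.03 and -6.92 in control fish), while U93483 had -0.03 (adjusted p = 0.95). For the glucocorticoid receptor gene nr3c1, AI384622 rose by 4.08 with 2 of its E2+ICI levels at recurring values, and BG891867 and U93468 had -0.65 and 0.51 (adjusted p = 0.12 and 0.45). The second probe of aspm, AI626804, had 0.29 (adjusted p = 0.36). The rise of si:ch73-106k19.5 by 6.17 rests on BF717943, at a recurring value on all 3 E2+ICI arrays, and BF717532 had -0.51 (adjusted p = 0.26). Both probes of zgc:111868 rose, by 5.57 and 5.26, and so did both of zgc:175136, by 5.21 and 4.28. The probes with 5.26 and 5.21 had E2+ICI replicate 3 at its recurring value. Of the 12 largest rises named by rule, all but the zgc:111868 probe with 5.57 had an E2+ICI array at a recurring value. Among all 1935 called probes, 48 had an E2+ICI or control array at one. In the list of nuclear receptors and coregulators, 7 of 73 probes rose (9.59%) and 0 fell, which is near the share of all probes, and without E2+ICI replicate 3 the rises were 4.

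Genes of protein export from the endoplasmic reticulum rose in 7 of 51 probes (13.7%, against 8.85% of all probes) and fell in 0 (median 0.21). The channel gene sec61a1b had -0.23, -0.37 and -0.44 in E2+ICI, 0.32, 0.11 and 0.51 in E2, and -1.15, -1.26, -1.68 and -1.32 in control fish (1.00, SE 0.16, adjusted p = 0.0024). Its call was lost in 4 of the alternative runs, with a limma adjusted p of up to 0.18. The chaperone gene hyou1 and the unfolded protein regulator xbp1 rose by 0.62 and 0.63 (adjusted p = 0.0094 and 0.028). The call of hyou1 was lost without E2+ICI replicate 3 (0.058), and that of xbp1 without E2+ICI replicate 1 (0.10) or 3 (0.12) or control replicate 1 (0.059), 2 (0.069) or 3 (0.065). Over all alternative runs these calls were lost in 3 and 8, with a limma adjusted p of up to 0.258 and 0.605. The list had 2, 4 and 1 raised probes without E2+ICI replicates 1, 2 and 3, 4 without control replicate 1 or 3, and 0 before Lowess normalization.

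Among 23 probes for plasma proteins of the liver, 4 fell (17.4%, against 3.01% of all probes), 1 rose and 18 were not called. The largest fall of all probes was that of hpxb, which encodes hemopexin, a heme carrier of the blood. It stood at 0.80, -0.66 and -0.51 in E2+ICI, -1.58, -1.51 and -1.50 in E2, and 2.11, 1.98, 2.56 and 2.71 in control fish, 5.51-fold lower in E2+ICI than in control fish (log2 -2.46, SE 0.32, adjusted p = 0.00047). The E2+ICI fish were thus between the other groups and higher than the E2 fish (1.41, adjusted p = 0.038).

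The hemoglobin-binding haptoglobin gene hp gave the same order, with 0.31, 0.45 and 0.19 in E2+ICI, -1.23, -0.83 and -1.08 in E2, and 0.92, 1.88, 1.78 and 1.22 in control fish (-1.13 against control, adjusted p = 0.0084, and 1.37 against E2, adjusted p = 0.014), and with quantile normalization its fall was not called (adjusted p = 0.074). In igfbp1a, a carrier of insulin-like growth factors, the E2+ICI fish had -0.44, -0.51 and -0.60, the E2 fish -1.91, -1.88 and -1.90, and the control fish 0.32, 0.26, 0.28 and 0.96 (-0.97 against control, adjusted p = 0.0047, and 1.38 against E2, adjusted p = 0.0041). The copper carrier gene cp also fell (-0.92, adjusted p = 0.032), a call lost without E2+ICI replicate 1 (0.11) or 3 (0.14), E2 replicate 1 (0.053) or control replicate 3 (0.078).

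The rise in this list was that of apoa1a, the main protein of high density lipoprotein. Its levels were -0.72, -0.22 and -0.07 in E2+ICI, -1.20, -1.48 and -1.36 in E2, and -2.44, -1.82, -1.55 and -1.93 in control fish (1.60, SE 0.22, adjusted p = 0.00079), and E2+ICI fish were also above E2 fish (1.01, adjusted p = 0.037). With quantile normalization the difference from control was 0.72 (adjusted p = 0.18). The liver marker fabp10a did not move beyond its spread, at -2.04, -1.71 and -0.85 in E2+ICI, -3.75, -3.53 and -4.06 in E2, and -2.64, -0.86, -1.16 and -2.76 in control fish (0.32, adjusted p = 0.71), and serpinc1 and tfa were not called either. Among 24 liver enzyme probes 2 rose (8.33%, near the 8.85% of all probes) and 3 fell (12.5%, against 3.01%). The cytochrome cyp2k6 was the larger rise, at 0.08, -0.14 and 0.06 in E2+ICI, 0.47, 0.19 and 0.69 in E2, and -2.56, -2.47, -2.24 and -1.18 in control fish (2.11, adjusted p = 0.00075). Of the liver enzyme falls, 1 was called without E2+ICI replicate 1, and leaving out E2+ICI replicate 3 gave 0.

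Immune genes moved in both directions, 9 of 63 probes down (14.3%, against 3.01% of all probes) and 6 up (9.52%, near the 8.85% of all). The neutrophil enzyme myeloperoxidase, mpx, had -0.33, -0.14 and -0.23 in E2+ICI, 0.31, 0.83 and 0.92 in E2, and 1.71, 1.75, 2.02 and 1.88 in control fish, 4.21-fold lower in E2+ICI than in control fish (log2 -2.07, SE 0.17, adjusted p = 2.5e-05). Here the E2+ICI fish were the lowest group, also below E2 fish (-0.92, adjusted p = 0.019). The pentraxin gene ptx3a, of innate defence, had -0.61, 0.01 and -0.71 in E2+ICI, -0.06, 0.03 and -0.02 in E2, and 0.85, 1.13, 1.48 and 1.81 in control fish (-1.76, SE 0.24, adjusted p = 0.00069).

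Other falls in this list were those of the macrophage perforin gene mpeg1.1, the galectin genes lgals9l1 (-1.01) and lgals1l1, hp, grna.1, the chemokine gene cxcl14, and the cytokine kinase gene jak1 (-0.91, adjusted p = 0.0068, probe AI584430), whose second probe U82980 had -0.26 (adjusted p = 0.29). Outside the list, irg1l, whose mammalian relative makes itaconate in activated macrophages, lay at -0.55, 0.42 and 0.13 in E2+ICI, -0.39, -0.33 and -0.75 in E2, and 1.67, 1.41, 1.68 and 1.68 in control fish (-1.61, SE 0.22, adjusted p = 0.00067). The raised immune probes were of antigen presentation or the interferon response, with psmb12 (1.89), psmb9a (1.37) and psmb8a of the immunoproteasome, mhc1uba and mhc1uca of MHC class I, and irf1a. For psmb12 the levels were -0.49, -0.81 and -0.61 in E2+ICI, -0.69, -0.96 and -0.97 in E2, and -2.87, -2.25, -2.52 and -2.47 in control fish (adjusted p = 4.2e-05). With quantile normalization psmb9a was not called (adjusted p = 0.17). The interferon-linked ifi27.2, below the reference in all groups, fell, with -2.90, -2.68 and -2.05 in E2+ICI, -2.85, -2.28 and -2.83 in E2, and -0.85, -1.29, -1.13 and -0.98 in control fish (-1.48, SE 0.22, adjusted p = 0.0014).

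Genes of skin and cell adhesion were among the falls. The epidermal transcription factor gene tp63 had 0.18 and -0.38 in the 2 E2+ICI fish with a value, -0.24, -0.10 and 0.02 in E2, and 0.76, 0.93, 1.76 and 1.90 in control fish (-1.43, SE 0.33, adjusted p = 0.018). The hemidesmosome collagen gene col17a1a, at -0.44, -0.54 and -1.03 in E2+ICI against 1.30, 0.26, 0.25 and 1.68 in control fish, fell by 1.54 (adjusted p = 0.013, and 0.080 without E2+ICI replicate 3). The integrin gene itga6b, whose product sits in the same junction, had -0.21, -0.58 and -0.42 in E2+ICI, -1.43, -1.09 and -0.78 in E2, and 0.75, 0.67, 0.51 and 0.76 in control fish (-1.08, SE 0.17, adjusted p = 0.0021). The skin markers krt4, krt5 and krt8 were not called (-0.46 to 0.10, adjusted p of 0.29 to 0.96). For krt5 every E2+ICI array and control replicates 1, 3 and 4 were at recurring values.

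In the extracellular matrix list 5 of 60 probes fell (8.33%, against 3.01% of all probes) and 1 rose (1.67%, against 8.85%). The metalloprotease inhibitor gene timp2b had 0.44, 0.69 and 0.19 in E2+ICI, -0.25, -0.20 and -0.29 in E2, and 1.41, 1.25, 1.56 and 1.76 in control fish (-1.05, SE 0.17, adjusted p = 0.0018), with E2+ICI above E2 fish (0.69, adjusted p = 0.049). With quantile normalization 11 probes of this list fell, and without E2+ICI replicate 3 there were 2. The keratin and junction list had 6 raised and 4 lowered of 90 probes, near the shares of all probes, and its falls numbered 2 without E2+ICI replicate 1, E2 replicate 2 or control replicate 3 and 1 without E2+ICI replicate 3.

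Of 126 growth factor and receptor probes 9 fell (7.14%) and 5 rose (3.97%), against 3.01% and 8.85% of all probes. The growth factor gene igf2a lay at -0.11, -0.21 and -0.38 in E2+ICI, -0.37, -0.40 and -0.27 in E2, and 0.43, 0.97, 0.79 and 1.14 in control fish (-1.07, SE 0.17, adjusted p = 0.0023), and the difference between E2+ICI and E2 fish was within their spread (0.11, adjusted p = 0.76). Both probes of igfbp3, a carrier of the same factors, fell (-0.95 and -0.66, adjusted p = 0.0029 and 0.025). The prolactin receptor gene prlra had 0.54, 0.92 and 0.60 in E2+ICI, 0.58, 0.43 and 0.32 in E2, and 1.64, 1.88, 1.82 and 1.87 in control fish (-1.11, SE 0.15, adjusted p = 0.00061).

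The largest fall of this list was epgn, a ligand of the epidermal growth factor receptor, at -0.50, 0.17 and 0.00 in E2+ICI, -1.70, -1.51 and -1.47 in E2, and 0.85, 1.27, 1.48 and 1.15 in control fish (-1.30, SE 0.20, adjusted p = 0.0014), and here E2+ICI and E2 fish differed (1.45, adjusted p = 0.0050). Without E2+ICI replicate 3 the list had 4 falls and 3 rises, and without E2+ICI replicate 1 it had 5 falls.

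**Figure D4:**
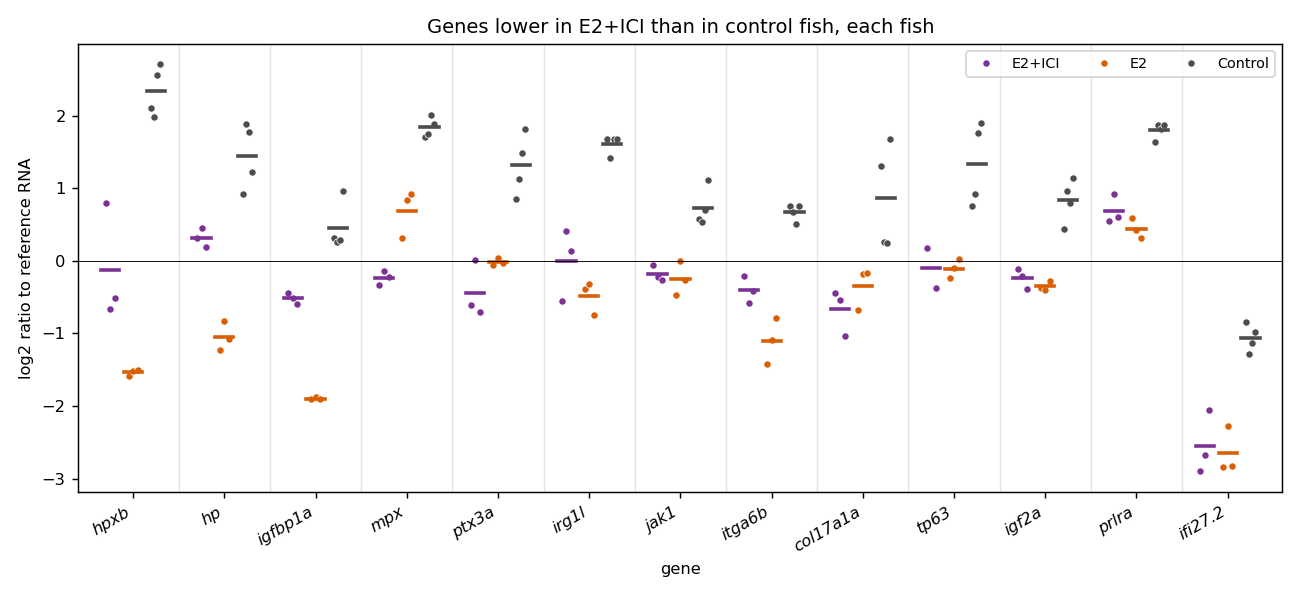
Log2 ratio to the reference RNA (vertical axis) of 13 genes that fell, in each fish, with E2+ICI in purple, E2 in orange and control in grey, and a bar at each group's mean. Every E2+ICI fish lies below every control fish, while the E2 fish are lower still for hpxb, hp and igfbp1a and higher for mpx. For hpxb, mpx, ptx3a, irg1l, col17a1a, tp63 and ifi27.2 this lack of overlap was a ground of choice and is no result.

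Immediate early and stress genes had 4 rises and 5 falls among 72 probes (5.56% and 6.94%, against 8.85% and 3.01% of all probes). Both probes of fosl2, a Fos family subunit of the AP-1 factor, fell. The probe BE605731 had -0.19, -0.19 and -0.23 in E2+ICI, -1.27, -1.36 and -1.20 in E2, and 0.37, 1.13, 0.80 and 0.54 in control fish (-0.91, SE 0.18, adjusted p = 0.0065). The fall of the other was -0.81 (adjusted p = 0.020), a call lost without E2+ICI replicate 1 (0.084) or 3 (0.11).

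In the other direction btg2, an antiproliferative gene, had -0.88, -1.47 and -0.75 in E2+ICI, -0.44, -0.45 and -0.37 in E2, and -2.73, -2.80, -2.84 and -3.13 in control fish (1.84, SE 0.18, adjusted p = 8.2e-05). With quantile normalization its rise was no longer called (adjusted p = 0.48), and 0 probes of the list rose. Without E2+ICI replicate 3 the list had 2 rises and 1 fall, without E2+ICI replicate 1 it had 3 and 2, and without control replicates 2 and 4 its rises were 2 and 7.

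Of muscle contractile genes 4 of 41 probes fell (9.76%, against 3.01% of all probes) and 2 rose (4.88%, against 8.85%). The muscle phosphoglycerate mutase gene pgam2 had -0.41, -0.63 and -0.65 in E2+ICI, -0.42 and -0.72 in the E2 fish with a value, and 0.19, 0.58, 0.62 and 0.53 in control fish (-1.04, SE 0.16, adjusted p = 0.0022). The calcium buffer gene pvalb1 rose by 2.16 (adjusted p = 0.023), at -0.06, 1.01 and 0.34 in E2+ICI against -0.35, -2.75, -2.79 and -1.04 in control fish, a call lost without E2+ICI replicate 2 (0.083) or 3 (0.082) or control replicate 3 (0.051). The other rise was that of mylz3 (1.35, adjusted p = 0.048), whose E2+ICI and control fish overlapped. Its E2+ICI replicate 3 was at the recurring value, and its call was lost in 17 alternative runs. The falls of this list numbered 1 without E2+ICI replicate 1 or 3 and 2 without E2 replicate 2 or 3.

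For pvalb1 the control fish fell into a higher pair, replicates 1 and 4, and a lower pair, 2 and 3. The same pairs stood apart for pvalb2 (0.17 and -0.09 against -1.80 and -2.18) and the red cell genes alas2 (1.71 and 2.02 against 0.42 and 0.44) and cahz (1.46 and 1.20 against 0.18 and 0.29). The red cell genes hbba1 (0.50 and 0.66 against 0.56 and 0.58) and hbaa1 (0.73 and 0.77 against 0.75 and 0.90) did not show them. The pairs also stood apart outside muscle and blood, as for col17a1a (1.30 and 1.68 against 0.26 and 0.25). The neuron marker snap25b had them too (0.60 and 0.43 against -0.40 and -0.37). The median over the neuron list was 0.34 and 0.43 against -0.13 and -0.13. The liver markers fabp10a (-2.64 and -2.76 against -0.86 and -1.16) and serpinc1 (-0.11 and 0.25 against 1.21 and 1.76) had them in the other direction. So did the raised probes zp3 (-5.84 and -6.50 against -4.27 and -4.51) and rxrba U29942 (-6.76 and -6.92 against -5.40 and -5.03). The part of these differences among controls in the results was not tested. The muscle markers ckma, mylpfa, tpma, tnnt3b and atp2a1 were not called, nor were the neuron markers elavl3, snap25a, snap25b and gfap. For ckma every E2+ICI array and control replicates 1, 2 and 4 were at recurring values. No call was made for 17 red blood cell, 15 ribosomal protein, 16 respiratory chain, 5 aryl hydrocarbon receptor and 4 lens probes by limma, against 11.9% of all probes. At an unadjusted p under 0.05 the counts were 5, 0, 2, 1 and 0 in that order, against 4246 of all 16309 probes. SAM called 0 of each, against 1122 of all probes. At such shares, lists of so few probes can have no call. The median over the ribosomal protein probes was a recurring value on E2+ICI replicates 1 and 3.

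Not all rises followed E2 alone, and most genes given here were chosen for it. Among called probes whose E2 mean lay within 0.5 of the control mean, diabloa, a promoter of cell death released from mitochondria, had 0.11, -0.47 and 0.28 in E2+ICI, -1.49, -1.14 and -1.47 in E2, and -1.37, -1.76, -1.90 and -1.79 in control fish. Its E2+ICI fish lay above every fish of the other groups (1.68 against control, SE 0.21, adjusted p = 0.00034, and 1.34 against E2, adjusted p = 0.0094). The gluconeogenic gene fbp1b gave -0.90, -0.63 and -0.55 in E2+ICI, -2.11, -2.07 and -2.30 in E2, and -2.22, -1.73, -1.79 and -3.06 in control fish (1.51 against control, adjusted p = 0.0047, and 1.47 against E2, adjusted p = 0.021). The gene insig1, which holds back cholesterol synthesis and was named through the lipid list, had 0.12, 0.20 and 0.27 in E2+ICI, -0.82, -0.64 and -0.86 in E2, and -1.01, -0.54, -0.41 and -1.05 in control fish (0.95, adjusted p = 0.0058, and 0.97 against E2, adjusted p = 0.019).

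The same order was measured for the pancreatic lipase gene cel.2, with -0.48, -0.36 and 0.01 in E2+ICI, -1.03, -1.07 and -1.19 in E2, and -0.99, -1.34, -1.28 and -1.14 in control fish (0.91 against control, adjusted p = 0.0033, and 0.82 against E2, adjusted p = 0.023). The phosphate transporter gene slc34a2a rose by 1.48 over control (adjusted p = 0.0012) and stood 0.99 above E2 (adjusted p = 0.037). The genes tiprl and ybey rose by 0.97 and 1.34 (adjusted p = 0.0028 and 0.0051), and of these ybey was also above E2 fish (1.17, adjusted p = 0.033) and tiprl was not called there (0.57, adjusted p = 0.081). With quantile normalization fbp1b and cel.2 were no longer called against control (adjusted p = 0.46 and 0.24) and slc34a2a turned to -0.06 (adjusted p = 0.96). Over all alternative runs the calls of fbp1b, cel.2 and insig1 were lost in 2, 4 and 1. That of slc34a2a was lost in 1 further run, and diabloa, tiprl and ybey kept theirs in all. Apart from insig1, the E2 mean chose these genes, and their closeness to control in E2 fish is therefore no result. That choice also favoured a gap between their E2+ICI and E2 fish. Their tests against E2 are thus given as a description only. Genes named for their change against control, among them insig1, apoa1a and mpx, were chosen on the same E2+ICI arrays. The tests of these genes against E2 are likewise a description.

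**Figure D5:**
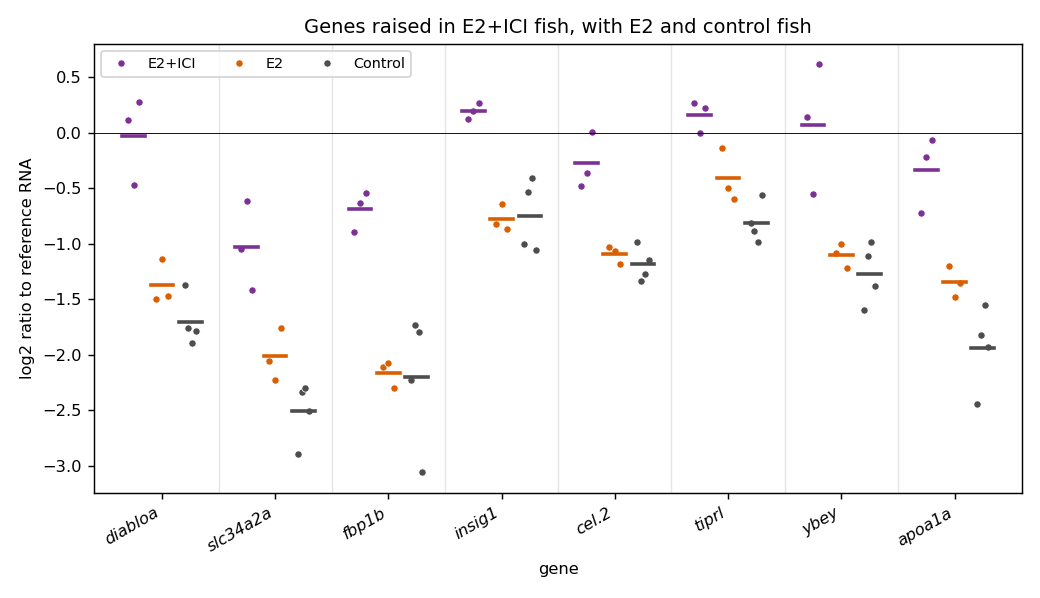
Log2 ratio to the reference RNA (vertical axis) of 6 genes chosen for an E2 mean near the control mean, and of insig1 and apoa1a, in each fish, with E2+ICI in purple, E2 in orange and control in grey, and a bar at each group's mean. The E2+ICI fish lie above every control fish for all 8 genes.

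At the other extreme, 6 called genes were chosen as those of largest change whose E2+ICI mean lay within 0.5 of the E2 mean, nanog, ccna2 and dnmt1 (above) being 3 of them. The remaining 3 were gbgt1l4, si:ch211-198m1.1 and fads2. The closeness of these 6 genes to E2 fish was the ground of choice and is no result. The desaturase gene fads2, of polyunsaturated fatty acid synthesis, had -3.18, -2.87 and -2.22 in E2+ICI, -2.97, -3.18 and -2.98 in E2, and -6.18, -4.76, -4.43 and -6.63 in control fish (2.74, SE 0.47, adjusted p = 0.0030), and turned to -0.72 with quantile normalization (adjusted p = 0.18) and was 0.38 with equal spread (adjusted p = 0.67). For gbgt1l4, a glycosyltransferase gene, the levels were -0.17, -1.08 and 0.18 in E2+ICI, -0.37, 0.27 and 0.05 in E2, and -5.06, -3.71, -2.97 and -4.07 in control fish (3.60, SE 0.43, adjusted p = 0.00029).

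By contrast med13b (BI889925), a Mediator subunit gene, stood in E2+ICI fish far below E2 fish, with -1.31, -1.72 and -1.12 in E2+ICI, 1.82, 2.05 and 1.35 in E2, and -4.53, -3.63, -2.79 and -4.35 in control fish. It was 5.44-fold higher in E2+ICI than in control fish (log2 2.44, adjusted p = 0.0013) and lower than in E2 fish (-3.12, adjusted p = 0.0029), while its second probe AI667411 had 0.26 against control (adjusted p = 0.36). With quantile normalization the difference of BI889925 from control was -0.0038 (adjusted p = 0.99). Transporters rose in 11 and fell in 5 of 104 probes (10.6% and 4.81%, near the 8.85% and 3.01% of all probes). The smallest adjusted p among them was that of slc22a23, an organic ion carrier, with -0.13, -0.32 and 0.27 in E2+ICI, 1.05, 0.52 and 0.54 in E2, and -2.02, -1.82, -1.88 and -1.58 in control fish (1.77, SE 0.19, adjusted p = 0.00017). Without E2+ICI replicate 3 the transporter list had 7 rises and 1 fall, without E2+ICI replicate 1 it had 2 falls, and without any 1 E2 array 3. The other lists were antioxidant defence, chaperones, exocrine pancreas, lipid metabolism, neuron, Notch, proteasome and ubiquitin, translation, and vesicle traffic. Of their probes 4.26% to 16.7% rose and 0% to 7.89% fell, against 8.85% and 3.01% of all probes. Most of these counts were lower without E2+ICI replicate 1 or 3, as for the chaperone rises (1 in place of 6 each time). The highest share of rises, 16.7%, was 1 of 6 exocrine pancreas probes, and the lowest, 4.26%, was 2 of 47 neuron probes. The lipid list had 6 rises (15.8%) and 3 falls (7.89%) among 38 probes. Its falls were 0 without E2+ICI replicate 1 and with quantile normalization.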

How the data were processed

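Arrays of 10 fish were analysed, 3 of E2+ICI, 3 of E2 and 4 of control fish, grouped by their labels. Per the methods, the authors labelled fish RNA with Cy3 and reference RNA with Cy5, subtracted local background from GenePix signals, applied Lowess normalization and kept arrays chosen by scatter plot, and they deposited log2 ratios after and, in a second table, before Lowess. Software versions are not given in the sources used here. All fish carried the same dye, so that a dye effect common to all arrays is shared by the groups. Spot intensities were not analysed here, and precision rests on the number of arrays.

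One limma 3.58.1 model (R 4.3.3) was fitted to all 10 arrays. Each contrast was tested in both directions with moderated statistics, and p-values were adjusted by Benjamini and Hochberg across every probe tested (16309 for E2+ICI against control, at least 2 values in each group). Of 16416 probes, 6088 carried 1 symbol, 75 several and 10253 none, and 6019 of the single symbols were found in RefSeq (GRCz12tu). Genes with 1 symbol were named by rule: the estrogen biomarkers, the 12 largest called rises and falls, up to 4 probes in the main direction and 2 in the other from each of 35 lists by adjusted p, and 6 each by nearness of the E2 mean to control or E2+ICI (within 0.5). The largest rises and falls were taken only from probes with all 3 E2+ICI arrays on 1 side of all 4 control arrays. Other members are named where a statement needs them, and not all that the rule gives are described. Lists and genes were chosen with earlier results of these data known. Alternatives were other scalings, values before Lowess, array weights, other filters, fits and tests, a replicate block, and leaving out each array. Replicates are separate fish. SAM was coded anew with all 35 labelings. Both tests were tested on simulated data. Figures were drawn with Python 3.11.15 and matplotlib 3.10.9. No sequences were analysed here.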

Additional observations from a re-analysis of the deposited data

Results flagged for a closer look

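In the 4 control arrays, 8 of the 160 probes named by rule that had all 4 values showed a single array whose gap to its nearest neighbour took up more of the group's range than Dixon's limit for 4 values allows. The limit is set to be passed by about 1 in 20 independent groups. These 160 probes share the same 4 arrays and most were chosen for their call, so that no expected number is given. Control replicate 2 had 1.41 for irg1l, against 1.67 to 1.68 in the other controls. Control replicate 4 had 0.96 for igfbp1a, against 0.26 to 0.32, and 0.46 for actn3b, against 0.01 to 0.06. For xbp1 it had -0.048, against -0.61 to -0.55. Control replicate 1 had -0.50 for rgs3a, against -0.89 to -0.86, and 0.36 for rcvrn3, against 0.05 to 0.10. Its value of -0.60 for eif4enif1 stood apart from -1.04 to -0.98. Control replicate 3 had -1.99 for snx12 (BG302807), against -1.75 to -1.73. Groups of 3 arrays were not examined in this way.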

How the results depend on the processing

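Leaving out each array in turn gave 897 to 2440 calls, 770 to 1847 of them higher and 127 to 593 lower, against 1935, 1444 and 491. Rises were 872 and falls 213 without E2+ICI replicate 1, and 770 and 127 without E2+ICI replicate 3, while falls were 327 without E2 replicate 1 and 321 without E2 replicate 3. Quantile normalization gave 1023 calls, 551 of them higher (53.9%, against 74.6%), arrays scaled to equal spread 1072 with 706 higher, and values before Lowess 1082 with 785 higher and 297 lower. Array weights gave 4090 calls (2633 higher, 1457 lower, 64.4% higher), a fit of only the 2 groups 1213 with 189 lower, a 2-fold minimum 891 (774 and 117, 86.9% higher), and SAM 1122 (956 and 166, 85.2% higher). Values before Lowess with array medians set to 0, added after seeing the data, gave 1476. The median change of all probes stayed within 0.04 of 0 in each setting.

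A replicate block gave 2070 calls. Deviations from the group means correlated at -0.06, -0.23 and 0.03 between same-numbered E2+ICI and control fish. Between fish of unlike number the correlations were -0.11 to 0.21. So few arrays cannot tell whether the numbers pair the fish.

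Of the 155 called probes named by rule, 67 were called in each of 22 alternatives that could test them and 49 lost the call on leaving out some array, 46 of them without E2+ICI replicate 3 and 35 without replicate 1. All 155 kept their direction in every alternative but quantile normalization, where fads2 (-0.72), med13b (-0.0038), mibp (-0.045), gjc4a.1 (-0.65) and slc34a2a (-0.056) turned negative without passing the test. The cause of these changes was not tested, and 3 E2+ICI arrays limit what can be told.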

Other observations

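Only 8 of the 1444 raised probes had a control mean above the reference level, and 12 of the 491 lowered probes had one below it. They were looked up after their values had been seen. A probe without a gene symbol (AI884299) had 2.62, 2.11 and 3.15 in E2+ICI, 0.17, 0.91 and 0.61 in E2, and 0.83, 0.82, 1.09 and 1.27 in control fish, a rise of 1.62. The gene cpn1, a subunit of the plasma enzyme carboxypeptidase N, had 1.11, 0.97 and 0.95 in E2+ICI, 1.90, 1.49 and 1.66 in E2, and 0.23, 0.24, 0.10 and 0.15 in control fish, a rise of 0.83. The translation repressor gene eif4ebp3 had 1.10 and 1.27 in the 2 E2+ICI fish with a value, 0.44, 0.86 and 0.19 in E2, and 0.51, 0.52, 0.28 and 0.23 in control fish. Among the falls, the unnamed probe AI477667 lay at -1.32, -1.24 and -1.82 in E2+ICI, -1.56, -0.96 and -1.59 in E2, and -0.07, -0.26, -0.22 and 0.43 in control fish.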
